A study of Mus musculus with 23 samples.

Results

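The genes described here are the mouse orthologues of 10 genes of the TREM2 and APOE axis of Alzheimer's disease risk: Trem2, Tyrobp, Apoe, Plcg2, Inpp5d, Abi3, Spi1, Ms4a6d, Grn and Bin1. They are listed by name, from human genetics and pathway knowledge, with no threshold on measured values, though the choice was made with earlier results of these data known. All 10 were found among the 54232 gene identifiers of each file. The 23 libraries hold poly(A)-selected RNA from the hippocampus of C57BL/6 mice and fall into 7 groups. At 9 months of age there were 4 wild-type libraries (WT), 4 of mice with the PS19 transgene, which encodes tau with the P301S change (PS19), 4 of PS19 mice heterozygous for Lsd1 (PS19;Lsd1Δ/+) and 2 of Lsd1 heterozygotes without the transgene (Lsd1Δ/+). At 11 months there were 3 libraries each of wild-type mice with a control virus (WT_HA), PS19 mice with that virus (PS19_HA) and PS19 mice with a virus carrying LSD1 (PS19_rescue). All 9 libraries at 11 months thus came from hippocampus injected with an adeno-associated virus built for expression in neurons. Those of PS19, PS19_HA and PS19_rescue are labelled LSD1 +/+. PS19 is a tauopathy model in which the mouse prion protein promoter drives human tau, and Kdm1a is the gene of LSD1, an enzyme that removes methyl groups from histones. The 14 libraries of PS19, PS19;Lsd1Δ/+, PS19_HA and PS19_rescue are called carriers below, and the 9 others non-carriers. The question of the study was whether loss of LSD1 function contributes to tau pathology. The 10 genes are the read-out followed here.

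TREM2 is a lipid-sensing receptor on the surface of microglia, the resident macrophages of the brain. It signals through its adaptor TYROBP, also called DAP12, to the kinase SYK and on to phospholipase C gamma 2, the product of Plcg2, while the phosphatase SHIP1, the product of Inpp5d, opposes that signal. Apolipoprotein E, a lipid carrier made mainly by astrocytes and also by reactive microglia, is a ligand of TREM2, and PU.1, the product of Spi1, is the transcription factor that defines the myeloid lineage. ABI3 is an actin regulator of microglia, MS4A proteins are multi-span membrane proteins whose human gene cluster is linked to soluble TREM2, progranulin (Grn) is a secreted and lysosomal protein, and BIN1 is a membrane-bending protein of neurons and oligodendrocytes as well as microglia.

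The start regions of the genes are shown because 6 of the 10 genes rose in transgene carriers, among them Trem2 and Inpp5d, whereas Apoe passed only with the replicate number as a block. RefSeq gave the 250 bases before a start for 5 of the 10 genes, in 7 windows of build GRCm38.p6: Trem2 (chr17:48346151-48346400, plus strand), Inpp5d (chr1:87620062-87620311, plus strand), Grn (chr11:102430257-102430506, plus strand), Plcg2 and Apoe, the last with 3 starts, of which the most upstream is shown (chr7:19699189-19699438, minus strand). Each is written 5′ to 3′ along the gene, ending at the base before the start. Capitals mark matches to GAGGAA (the core of PU.1 sites) on either strand, TTCCTC being its reverse complement, and to TGANTCA (AP-1).
Trem2 promoter: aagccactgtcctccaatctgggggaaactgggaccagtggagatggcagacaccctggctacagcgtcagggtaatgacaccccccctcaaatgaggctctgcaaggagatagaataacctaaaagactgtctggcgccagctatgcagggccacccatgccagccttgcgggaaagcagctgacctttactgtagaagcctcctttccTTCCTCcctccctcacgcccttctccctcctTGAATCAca
Inpp5d promoter: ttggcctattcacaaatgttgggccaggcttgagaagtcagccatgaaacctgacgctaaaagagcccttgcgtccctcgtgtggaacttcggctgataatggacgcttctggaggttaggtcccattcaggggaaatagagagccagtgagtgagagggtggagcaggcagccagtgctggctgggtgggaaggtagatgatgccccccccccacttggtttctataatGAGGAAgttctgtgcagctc
Apoe promoter: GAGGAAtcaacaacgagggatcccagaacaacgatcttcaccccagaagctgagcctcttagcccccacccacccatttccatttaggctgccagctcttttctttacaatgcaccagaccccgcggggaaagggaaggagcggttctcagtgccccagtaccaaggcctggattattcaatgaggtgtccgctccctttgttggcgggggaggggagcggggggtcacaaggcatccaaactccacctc
In Trem2 the letters TTCCTC began 40 bases and TGAATCA 9 bases before the start. Inpp5d had GAGGAA at 20 bases, and Grn had it at 176 and at 164 bases. The Grn window precedes a downstream RefSeq start and lies mostly inside the gene as GENCODE gives it, both matches included, so it is not shown. Apoe had it at 250 bases in the window shown and at 132 bases in the window of another of its starts. Plcg2 had no GAGGAA but CACGTG, the E-box bound by TFEB, at 20 bases. Among the 32851 windows of this length that were searched, 23.3% held GAGGAA, 6.75% TGANTCA and 6.02% CACGTG on either strand. These matches describe the letters of the windows only. No window was available for Tyrobp, Abi3, Spi1 and Ms4a6d, and Bin1 was left out of the search, so their promoters are not shown.

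Library totals ran from 15451494 to 24644977 counts, and levels are given as CPM, the counts divided by library size, scaled by TMM over all 23 libraries. The labels were checked on the genes they imply. Kdm1a read 53.1 to 58.3 CPM in WT, 36.9 and 37.0 in Lsd1Δ/+, 37.3, 36.5, 55.2 and 43.6 in PS19;Lsd1Δ/+, 51.9 to 58.6 in PS19 and 59.2 to 61.1 in PS19_HA. PS19_rescue read 1763 to 10853, where reads of the virus and of the mouse gene are not told apart. The library labelled PS19;Lsd1Δ/+ replicate 3 thus lay within the WT and PS19 ranges, against its label. Prnp, whose promoter drives the transgene, read 605 to 941 CPM in non-carriers and 1110 to 1818 in carriers. Markers of hippocampal neurons were read in every library, with the lowest sums in PS19_HA replicate 3 (168 CPM) and PS19;Lsd1Δ/+ replicate 2 (170 CPM). The other PS19;Lsd1Δ/+ libraries had 379 to 670 CPM. Markers of neurons in general summed to 4876 CPM in that replicate 2 and to 7790 to 10611 in the others of its group. The part of this in the results was not tested. Some libraries stood apart by their mitochondrial share: WT replicate 3 with 33.9%, PS19 replicate 3 with 16.1% and WT_HA replicate 2 with 16.2%. The other 20 had 2.86% to 6.04%. All 14 libraries at 9 months had the Xist and Y-linked reads of males, and each group at 11 months held 1 library of that type and 2 of the female type. WT_HA replicate 2 and PS19_HA replicate 2 read Xist at female levels together with 20.6 and 18.6 CPM of Y-linked genes, where other female-type libraries had at most 1.52. The labels do not say that libraries came from separate animals, so p-values measure the spread between these libraries.

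In wild-type hippocampus the 10 genes spanned a wide range of levels. Per kilobase of exon, Apoe was at 670.2 ± 320 CPM (SD, n = 4), Bin1 at 60.9 ± 31.6, Grn at 11.9 ± 6.64 and Tyrobp at 9.01 ± 1.48. The other 6 lay between 0.252 ± 0.132 for Ms4a6d and 1.98 ± 1.14 for Trem2. Reads per library ranged from 31 to 1710 for Trem2, from 5692 to 76474 for Apoe and from 124 to 3626 for Grn. Coverage was thin for Ms4a6d, with 2 to 102 reads, and for Abi3, with 1 to 118.

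Over both ages, 6 of the 10 genes were higher in the 14 carriers than in the 9 non-carriers past the threshold, an adjusted p under 0.05 in edgeR's quasi-likelihood test with age as a covariate. They were Tyrobp, Ms4a6d, Trem2, Spi1, Inpp5d and Grn, with log2 differences from 0.87 to 1.78, and none was lower. The background was 2.98% of the 20931 genes tested, and the median log2 difference was 0.92 over the 10 genes against -0.01 over all. DESeq2 also called 6 of the 10, beside 4.06% of its 20695 genes. Lsd1 genotype and the LSD1 virus were not covariates in this comparison, which pools unlike groups. The carriers included 4 PS19;Lsd1Δ/+ and 3 PS19_rescue libraries. The non-carriers included 2 Lsd1Δ/+ libraries and none with the LSD1 virus. Carrier status is thus partly mixed with LSD1 dose, whose part in the difference was not tested. In bulk tissue, fewer cells of a type and less RNA per cell cannot be told apart, and the same holds for more. No gene of the 10 was called by edgeR in any single comparison of 2 groups, where the groups were small.

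Against WT at 9 months, all 10 genes read higher in PS19, by a median log2 difference of 1.26 against -0.02 over all genes, yet 0 of 10 passed edgeR's adjusted threshold, beside 0.0745% of 20122 genes. At an unadjusted p under 0.05 there were 7 of 10, beside 4.18% of all genes. DESeq2 called 1 of 10, Tyrobp, beside 0.958% of 19934 genes. Prnp, whose PS19 libraries all lay above all WT libraries, was not called by edgeR either (log2 difference 1.08 ± 0.21, adjusted p = 0.0986). A missing call in these small groups thus does not show that a gene was unchanged. Between PS19;Lsd1Δ/+ and the same WT libraries the median was 1.15, edgeR called 0 of 10 beside 0.0199% of genes, 6 of 10 had an unadjusted p under 0.05 beside 6.96%, and DESeq2 called Tyrobp alone beside 0.552%. At 11 months, PS19_HA against WT_HA gave a median of 0.78 with all 10 higher. There edgeR called 0 of 10 beside 0.0104% of 19290 genes, 7 of 10 had an unadjusted p under 0.05 beside 8.81%, and DESeq2 called Trem2 and Tyrobp beside 0.635% of 18899. The first and second of these comparisons share the WT libraries, and the comparison of all carriers shares libraries with each of the others.

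**Figure D1:**
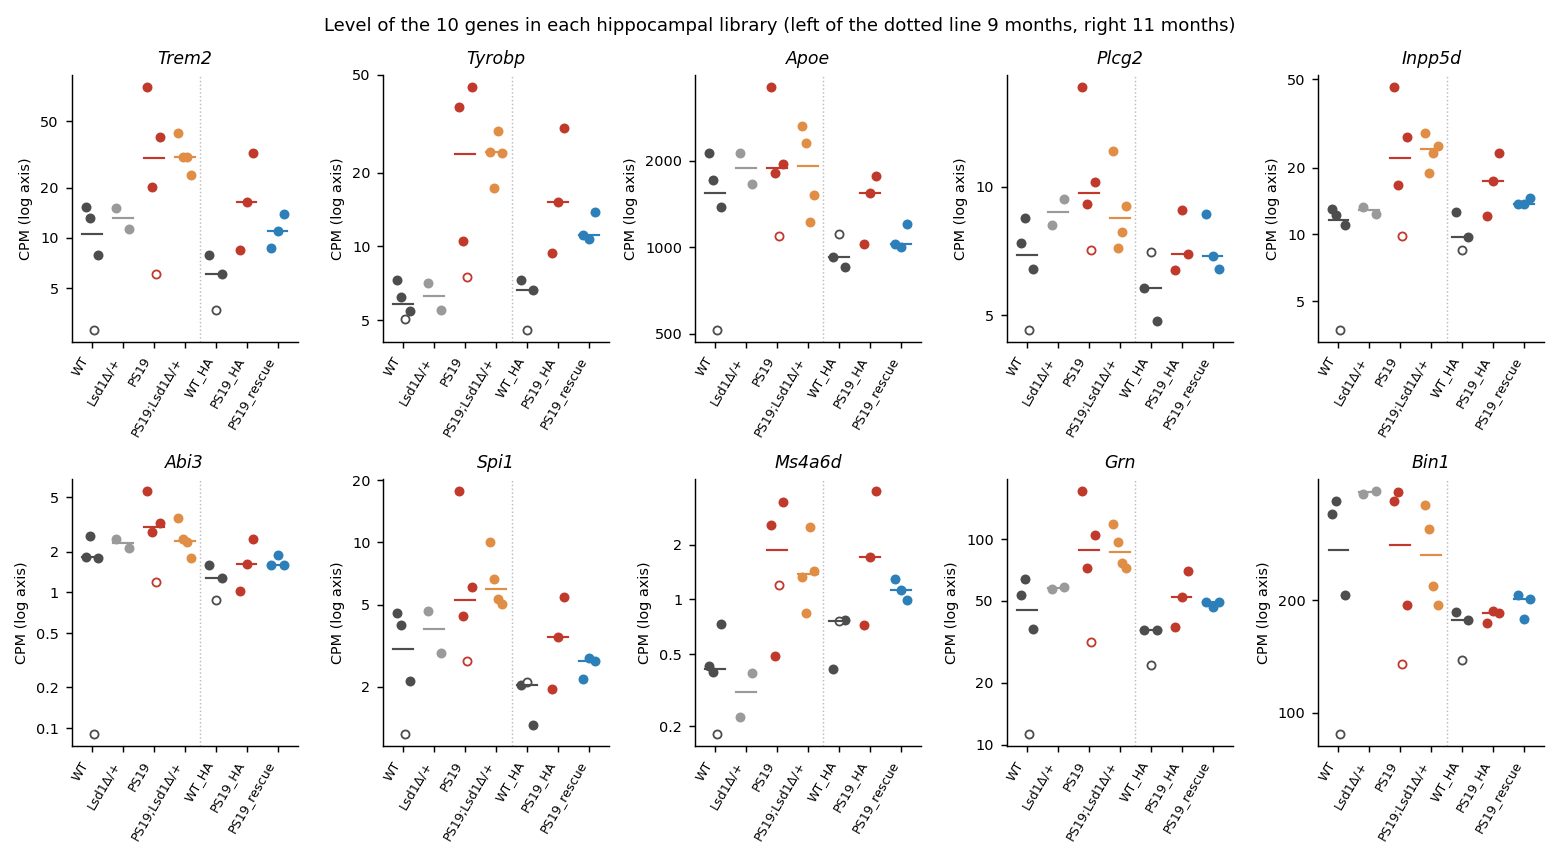
Level of each gene in CPM on a log axis (vertical) by group (horizontal), 1 point per library, with a bar at the group median and open points for the 3 libraries with over 10% mitochondrial counts. Points of Tyrobp in all PS19 groups lie above those of the groups without the transgene, whereas those of Bin1 overlap.

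Trem2, at chr17:48346401-48354147, encodes the receptor. Its WT libraries read 15.4, 13.1, 2.81 and 7.85 CPM in replicate order, Lsd1Δ/+ 15.0 and 11.3, PS19 80.8, 20.3, 6.06 and 40.1, and PS19;Lsd1Δ/+ 42.7, 30.8, 30.4 and 24.0. At 11 months the values were 7.91, 3.69 and 6.12 in WT_HA, 8.52, 16.3 and 32.2 in PS19_HA, and 8.74, 11.1 and 13.9 in PS19_rescue. Among the older libraries all 6 carriers lay above the 3 non-carriers, and at 9 months 7 of 8 did, with PS19 replicate 3 within the non-carrier range. Trem2 rose 2.92-fold in carriers, a log2 difference of 1.55 ± 0.33 (SE) with a 95% interval of 0.86 to 2.24 (edgeR, adjusted p = 0.00904). In the single comparisons Trem2 differed by 1.89 ± 0.60 for PS19 against WT (adjusted p = 0.467), 1.70 ± 0.60 for PS19;Lsd1Δ/+ against WT (adjusted p = 0.589) and 1.71 ± 0.45 for PS19_HA against WT_HA (adjusted p = 0.442), on the log2 scale in edgeR. DESeq2 put the last past the threshold, with an adjusted p of 0.0278. Ordered by mean, the groups ran from WT_HA over WT, PS19_rescue, Lsd1Δ/+, PS19_HA and PS19;Lsd1Δ/+ to PS19, and the ranges of all neighbours in that order overlapped.

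Tyrobp, at chr7:30413760-30417585, encodes the adaptor through which TREM2 signals. The values were 7.30, 6.24, 5.07 and 5.44 CPM in WT, 7.09 and 5.50 in Lsd1Δ/+, 37.0, 10.5, 7.52 and 44.8 in PS19, and 24.2, 17.3, 29.4 and 24.1 in PS19;Lsd1Δ/+. Those of the injected mice were 7.33, 4.57 and 6.66 in WT_HA, 9.37, 15.1 and 30.4 in PS19_HA, and 11.2, 10.7 and 13.8 in PS19_rescue. Tyrobp was the only member for which every carrier lay above every non-carrier of its age, 8 of 8 at 9 months and 6 of 6 at 11 months. The share of all genes that separate in this way was not computed, here or for such counts of the other members. The carriers exceeded the non-carriers 3.33-fold (log2 difference 1.73 ± 0.27, 95% interval 1.17 to 2.30, edgeR adjusted p = 0.000835). On the log2 scale Tyrobp differed by 2.05 ± 0.47 for PS19 against WT (edgeR adjusted p = 0.152, DESeq2 0.00431), 1.97 ± 0.47 for PS19;Lsd1Δ/+ against WT (0.280 and 0.0118) and 1.59 ± 0.38 for PS19_HA against WT_HA (0.442 and 0.0161). With PS19 replicate 2 left out, edgeR's adjusted p for PS19 against WT was 0.0269. By mean, WT, WT_HA and Lsd1Δ/+ overlapped at the bottom, and a gap separated Lsd1Δ/+ from PS19_rescue, the lowest carrier group.

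Of the signalling enzymes downstream of the receptor, Inpp5d passed the test and Plcg2 did not, with 95% intervals that overlapped. The difference between them was not tested. Inpp5d, at chr1:87620312-87720507, which encodes the inhibitory phosphatase SHIP1, read 13, 12.3, 3.71 and 11.0 CPM in WT, 13.3 and 12.4 in Lsd1Δ/+, 46.3, 16.7, 9.85 and 27.4 in PS19, and 28.6, 18.9, 23.3 and 25.1 in PS19;Lsd1Δ/+. At 11 months it read 12.6, 8.55 and 9.77 in WT_HA, 12.1, 17.5 and 23.4 in PS19_HA, and 13.8, 13.7 and 14.6 in PS19_rescue. Of the carriers, 7 of 8 at 9 months and 5 of 6 at 11 months exceeded all non-carriers of their age. Inpp5d rose 1.95-fold in carriers (log2 difference 0.96 ± 0.21, 95% interval 0.52 to 1.41, edgeR adjusted p = 0.0113), while the single comparisons gave 1.31 ± 0.41, 1.26 ± 0.41 and 0.81 ± 0.23 for PS19, PS19;Lsd1Δ/+ and PS19_HA against their controls (edgeR adjusted p = 0.457, 0.519 and 0.442).

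Plcg2, at chr8:117498291-117635142, encodes the phospholipase that carries the TREM2 signal forward. WT libraries had 7.40, 8.45, 4.62 and 6.42 CPM, Lsd1Δ/+ 8.12 and 9.37, PS19 17.2, 9.10, 7.12 and 10.3, and PS19;Lsd1Δ/+ 12.2, 7.18, 7.83 and 9.02. The injected groups had 5.79, 7.03 and 4.85 (WT_HA), 6.39, 8.84 and 6.96 (PS19_HA) and 8.62, 6.86 and 6.42 (PS19_rescue). Apart from PS19 replicate 1 the ranges lay close together, with 3 of 8 and 2 of 6 carriers above all non-carriers. The log2 difference of carriers was 0.39 ± 0.14, with a 95% interval of 0.11 to 0.68, and did not pass the threshold (edgeR adjusted p = 0.171). With the replicate number as a block it was 0.42 (edgeR adjusted p = 0.0261) and did pass.

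Spi1, at chr2:91082390-91115756, encodes PU.1. Its levels were 4.56, 3.98, 1.18 and 2.13 CPM in WT, 4.67 and 2.92 in Lsd1Δ/+, 17.7, 4.39, 2.66 and 6.07 in PS19, and 9.98, 6.61, 5.32 and 5.04 in PS19;Lsd1Δ/+. They were 2.04, 2.1 and 1.31 in WT_HA, 1.96, 3.49 and 5.45 in PS19_HA, and 2.19, 2.75 and 2.66 in PS19_rescue. Of the carriers 6 of 8 and 5 of 6 exceeded all non-carriers of their age. Spi1 rose 2.02-fold in carriers (log2 difference 1.02 ± 0.27, 95% interval 0.45 to 1.58), close to the threshold (edgeR adjusted p = 0.0424). That call ended without a filter on low counts (0.0752), with a sex covariate (0.0539) and with edgeR's older fit (0.0516). It also ended without any 1 of 16 libraries, with adjusted p from 0.0503 to 0.0969, and held only without replicate 2 or 3 of PS19, replicate 3 of PS19;Lsd1Δ/+, replicate 1 of PS19_HA or any replicate of PS19_rescue.

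Ms4a6d, at chr19:11586604-11604849, belongs to a cluster of near-related membrane protein genes, so reads may be shared with its paralogs. WT libraries read 0.432, 0.398, 0.181 and 0.736 CPM, Lsd1Δ/+ 0.224 and 0.393, PS19 2.55, 0.488, 1.2 and 3.44, and PS19;Lsd1Δ/+ 1.33, 0.841, 2.51 and 1.42. WT_HA read 0.416, 0.761 and 0.769, PS19_HA 0.724, 1.70 and 3.94, and PS19_rescue 1.30, 1.12 and 0.988. Every carrier except PS19 replicate 2 and PS19_HA replicate 1 lay above all non-carriers of its age. Ms4a6d rose 3.43-fold in carriers, the largest of the 10 estimates, on few reads (log2 difference 1.78 ± 0.37, 95% interval 1.02 to 2.54, edgeR adjusted p = 0.00633). PS19 against WT gave 2.08 ± 0.58 (edgeR adjusted p = 0.320, and 0.0468 without PS19 replicate 2). PS19_HA against WT_HA gave 1.76 ± 0.57 (edgeR adjusted p = 0.445).

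Abi3, at chr11:95830074-95842476, encodes an actin regulator and was the least certain of the 10. Of its 4153 exon bases, 3147 (75.8%) are shared with genes on the opposite strand (Zfp652, Phospho1 and Gngt2), and the strand setting of the counting is not given in the sources used here. It read 1.83, 2.61, 0.0905 and 1.8 CPM in WT, 2.47 and 2.13 in Lsd1Δ/+, 5.58, 2.76, 1.2 and 3.27 in PS19 and 3.51, 2.48, 2.33 and 1.78 in PS19;Lsd1Δ/+. At 11 months it read 1.58, 0.878 and 1.27 in WT_HA, 1.02, 1.62 and 2.47 in PS19_HA, and 1.59, 1.87 and 1.6 in PS19_rescue. Group ranges overlapped at 9 months, and the log2 difference of carriers was 0.56 ± 0.26, with a 95% interval of 0.03 to 1.10 (edgeR adjusted p = 0.370).

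Apoe, at chr7:19696109-19699188, encodes the lipid carrier. WT libraries read 2128, 1711, 515 and 1378 CPM, Lsd1Δ/+ 2118 and 1664, PS19 3614, 1814, 1095 and 1942, and PS19;Lsd1Δ/+ 2634, 2301, 1219 and 1524. WT_HA libraries read 923, 1108 and 854, PS19_HA 1030, 1543 and 1768, and PS19_rescue 1023, 1004 and 1203. At 9 months 3 of 8 carriers and at 11 months 3 of 6 exceeded all non-carriers, and the lowest 9-month value of each WT and PS19 group came from replicate 3, the library with many mitochondrial counts. The log2 difference of carriers was 0.37 ± 0.20, with a 95% interval of -0.04 to 0.78, and did not pass the threshold (edgeR adjusted p = 0.482). With the replicate number as a block, it was 0.47 and passed (edgeR adjusted p = 0.0130). For PS19_HA against WT_HA Apoe differed by 0.62 ± 0.20 on the log2 scale (edgeR adjusted p = 0.443), and the 3 PS19_HA values reached from inside to above the WT_HA range. Apoe is expressed by astrocytes as well as microglia, and summed astrocyte markers ranged from 4660 to 6132 CPM in WT and from 4702 to 7764 in PS19.

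Grn, at chr11:102430315-102437048, encodes progranulin. The libraries read 53.5, 64.1, 11.2 and 36.6 CPM in WT, 56.9 and 58.2 in Lsd1Δ/+, 171, 72.6, 31.6 and 104 in PS19, and 119, 96.6, 76.6 and 72.3 in PS19;Lsd1Δ/+. At 11 months they read 36.3, 24.5 and 36.2 in WT_HA, 37.5, 52.1 and 70.0 in PS19_HA, and 49.3, 46.7 and 49.4 in PS19_rescue. Carriers lay above all non-carriers in 7 of 8 and 6 of 6 cases. Grn rose 1.83-fold in carriers (log2 difference 0.87 ± 0.24, 95% interval 0.39 to 1.36, edgeR adjusted p = 0.0421). As with Spi1, that call was close to the threshold: it ended without the filter on low counts (0.0910) and without any 1 of 16 libraries (0.0524 to 0.103). It held without WT replicate 2, PS19 replicate 2 or 3, WT_HA replicate 3, PS19_HA replicate 1, or PS19_rescue replicate 1 or 2. The single comparisons gave 1.2 ± 0.47, 1.14 ± 0.47 and 0.75 ± 0.22 for PS19, PS19;Lsd1Δ/+ and PS19_HA against their controls (edgeR adjusted p = 0.833, 0.693 and 0.442).

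Bin1, on chromosome 18, encodes the membrane-bending protein and had the smallest difference of the 10. It read 340, 370, 87.5 and 206 CPM in WT, 386 and 393 in Lsd1Δ/+, 370, 391, 135 and 194 in PS19, and 360, 310, 218 and 194 in PS19;Lsd1Δ/+. WT_HA read 186, 138 and 177, PS19_HA 174, 187 and 185, and PS19_rescue 206, 178 and 202. No carrier at 9 months but 3 of 6 at 11 months exceeded all non-carriers of their age. Replicates 3 and 4 were lower than 1 and 2 in each 9-month group with 4 libraries. The log2 difference of carriers was -0.01 ± 0.19, with a 95% interval of -0.41 to 0.39 (edgeR adjusted p = 0.993). Grn, with the smallest estimate of the 6 called genes, was at 0.87 with an interval of 0.39 to 1.36. These intervals meet near 0.39, and the difference between the genes was not tested. Bin1's sign was not stable: its carrier difference was 0.15 with the replicate block and ran from -0.13 to 0.06 as each library was left out.

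**Figure D2:**
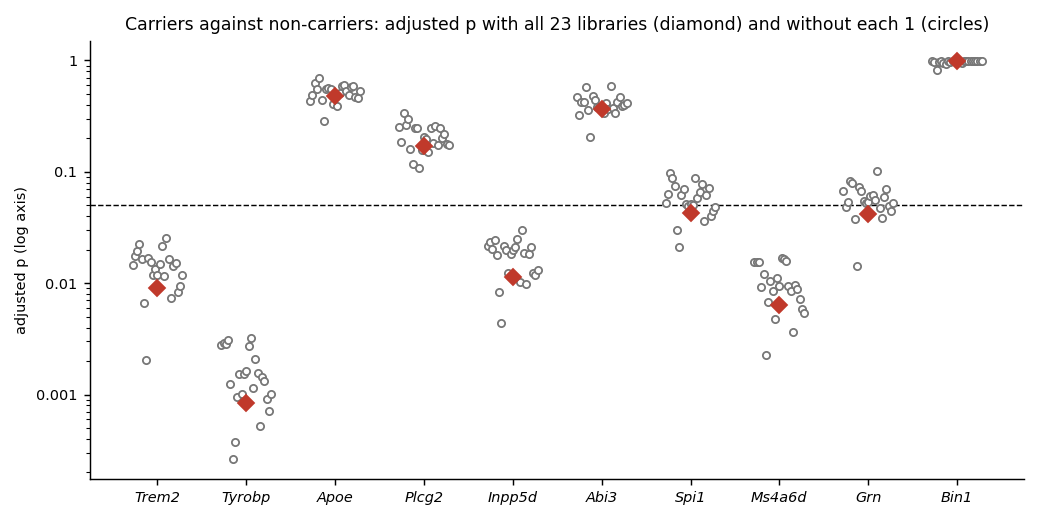
edgeR's adjusted p over all carriers against non-carriers (log axis) for each gene, with all 23 libraries (diamonds) and with each 1 left out (circles), and a dashed line at 0.05. Circles of Spi1 and Grn lie on both sides of the line, and those of Trem2, Tyrobp, Inpp5d and Ms4a6d all lie below it.

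**Figure D3:**
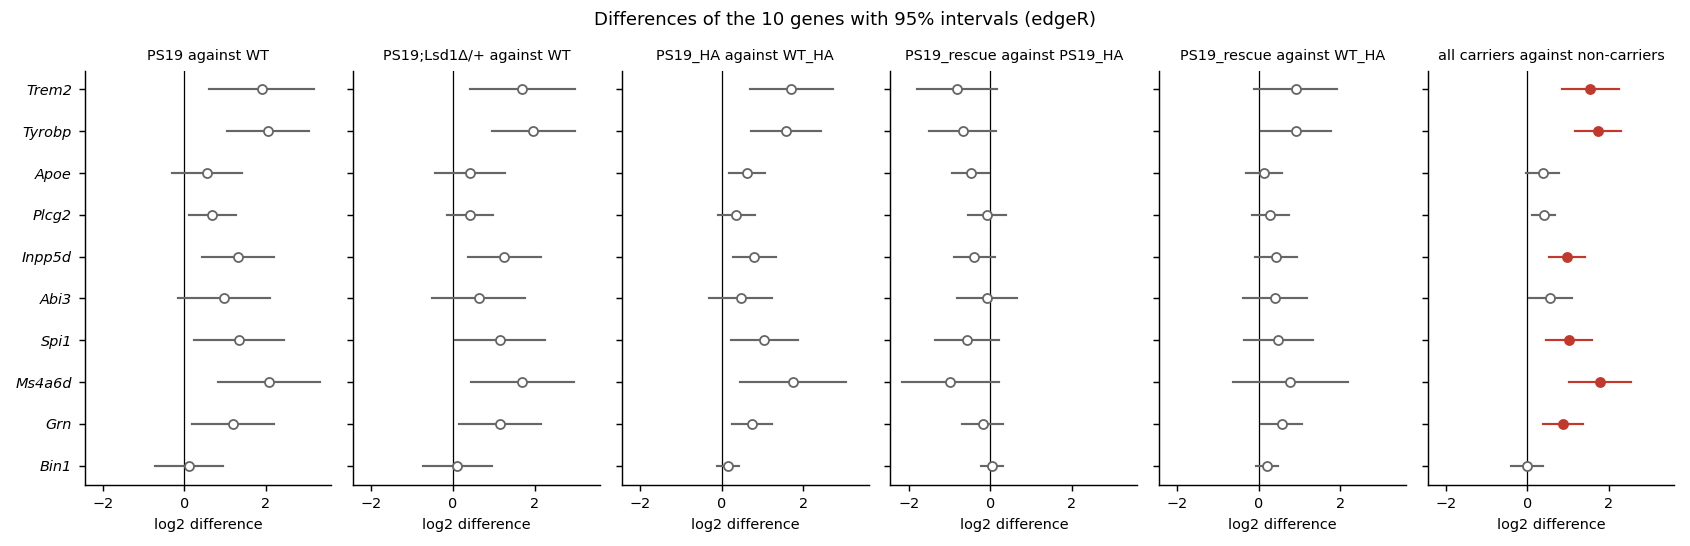
Log2 difference (horizontal, points) with its 95% interval (lines) for each gene (vertical) in 6 comparisons from edgeR, filled red where the adjusted p is under 0.05. Filled points appear only in the comparison of all carriers with all non-carriers, for 6 of the 10 genes, with log2 differences from 0.87 to 1.78.

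Groups that did not overlap at all were counted beside the same count over the 16175 genes that averaged 1 CPM or more. For PS19 against WT this held for 1 of 10 genes, Tyrobp, beside 0.964% of all genes. All PS19;Lsd1Δ/+ libraries lay above all WT libraries for 6 of 10, the genes called over all carriers, beside 3.38%. PS19_HA lay above WT_HA for 3 of 10, Trem2, Tyrobp and Grn, beside 6.03%. PS19_rescue lay above WT_HA for 7 of 10, Trem2, Tyrobp, Inpp5d, Abi3, Spi1, Ms4a6d and Grn, beside 7.0%.

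Between the libraries labelled PS19;Lsd1Δ/+ and those of PS19, none of the 10 genes passed the test. All 10 read lower in PS19;Lsd1Δ/+ than in PS19, but by log2 differences of only -0.01 to -0.37 with a median of -0.16, and edgeR called 0 of 10 beside 0% of 20122 genes. No gene of the 10 had an unadjusted p under 0.05, against 1.46% of all genes, and DESeq2 called 0 of the 10 and 1 gene in all. The 95% intervals had a median width of 1.96 on the log2 scale and all held 0, among them that of Trem2 from -1.43 to 1.06 and that of Tyrobp from -1.04 to 0.89. The members' direction was not stable, since 32 of 190 estimates under other settings had the other sign. Without replicate 3 of PS19;Lsd1Δ/+, whose Kdm1a went against its label, the median was -0.16 and edgeR called 0 of 10, and against WT the median was 1.24 with 0 of 10 called. The spread fell unevenly over these groups: PS19 had a Tyrobp mean of 24.9 ± 18.7 CPM (SD, n = 4) and PS19;Lsd1Δ/+ one of 23.8 ± 4.98, and for Trem2 the values were 36.8 ± 32.5 and 32 ± 7.81.

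Heterozygosity for Lsd1 without the transgene was measured in 2 libraries only. The log2 differences of Lsd1Δ/+ from WT ran from -0.63 to 0.61 with a median of 0.35, 9 of 10 being positive, and edgeR called 0 of 10 beside 0% of genes. None of the 10 had an unadjusted p under 0.05, against 1.54% of all genes, and DESeq2 called 0 of the 10 and 1 gene in all. Both Lsd1Δ/+ libraries lay above all 4 WT libraries for 1 gene of the 10, Bin1, beside 5.34% of all genes. The WT group held the library with 33.9% mitochondrial counts, which was the lowest WT library for all 10 genes. Without the libraries over 10% mitochondrial counts the median was 0.13.

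The LSD1 virus in PS19 mice came with lower readings of 9 of the 10 genes, none past the threshold. Of the log2 differences of PS19_rescue from PS19_HA, that of Ms4a6d was -0.98 ± 0.53, that of Trem2 -0.81 ± 0.44, with a 95% interval of -1.79 to 0.17, that of Tyrobp -0.68 ± 0.37 and that of Spi1 -0.57 ± 0.35. The median was -0.43 against -0.01 over all genes. In edgeR 0 of 10 were called beside 0% of 19290 genes (every adjusted p of the 10 rounds to 1.00), 1 of 10, Apoe (-0.48 ± 0.20), had an unadjusted p under 0.05 beside 1.95% of all genes, and DESeq2 called 0 of the 10 and 3 genes in all. Kdm1a, the gene the virus carries, was not called by edgeR there either, at a log2 difference of 6.38 ± 0.67 (adjusted p = 0.0817). A missing call in this comparison thus does not show that a gene was unchanged. No member had all PS19_rescue libraries below all PS19_HA libraries, beside 1.49% of genes. For each of the 10 the PS19_HA group held its lowest value in replicate 1, and 8 of the 10 had their highest in replicate 3, whereas the 3 PS19_rescue libraries lay close together. Without PS19_HA replicate 3 the log2 differences were -0.19 for Trem2, -0.10 for Tyrobp, -0.15 for Spi1, -0.17 for Ms4a6d, -0.13 for Inpp5d, -0.31 for Apoe, 0.30 for Abi3 and 0.06 for Grn. Without PS19_HA replicate 1 that of Inpp5d was -0.59 and that of Spi1 -0.86. PS19_HA replicate 3 was the only male-type library of its group, and its hippocampal neuron markers summed to 168 CPM against 573 and 595 in replicates 1 and 2. The part of these in the result was not tested. Against WT_HA, the PS19_rescue libraries read higher for all 10 genes, by a median of 0.45, with Tyrobp at 0.91 ± 0.38 and Trem2 at 0.90 ± 0.45. Here edgeR called 0 of 10 beside 0.0156% of genes, 2 of 10 (Tyrobp and Grn) had an unadjusted p under 0.05 beside 3.96%, and DESeq2 called 0 of the 10 and 17 genes in all. Both comparisons share the PS19_rescue libraries, and that with WT_HA shares its controls with PS19_HA against WT_HA.

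The difference between the ages was tested as the effect of the transgene at 11 months minus that at 9 months. The log2 values of that difference ran from -0.50 to 0.06 with a median of -0.32, 8 of 10 being negative, and edgeR called 0 of 10 beside 0% of 20931 genes, as did DESeq2. None of the 10 had an unadjusted p under 0.05, against 0.736% of all genes. All intervals held 0, with a median width of 2.65. Age, injection and sex composition cannot be told apart in that contrast.

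Markers of microglia moved with these genes. The 12 microglial markers summed to 322 to 350 CPM in WT, 307 and 319 in Lsd1Δ/+, 364 to 842 in PS19, and 374 to 651 in PS19;Lsd1Δ/+, while the injected groups lay at 294 to 338 (WT_HA), 321 to 573 (PS19_HA) and 356 to 396 (PS19_rescue). In carriers against non-carriers 5 of the 12 were called higher by edgeR (among them Cx3cr1, Csf1r, Aif1 and Sall1) and 0 lower. The share called over all 20931 genes tested was 2.98%, in either direction. The 12 microglial markers had a median log2 difference of 0.64. Relative to the mean log2 level of those markers, Tyrobp stood at -1.62 ± 0.18 (SD, n = 4) in WT and -0.29 ± 0.12 in PS19;Lsd1Δ/+, and at -1.49 ± 0.41 (n = 3) in WT_HA and -0.55 ± 0.47 in PS19_HA. For Trem2 the same quantity was -1.16 ± 0.99 and 0.13 ± 0.44 at 9 months, and -1.59 ± 0.60 and -0.54 ± 0.55 at 11 months. In those comparisons both genes differed by more than the marker mean did, and the groups did not overlap. Among the WT libraries Trem2 stood at -2.51 in replicate 3, which had 33.9% mitochondrial counts, and at -1.32 to -0.34 in the others. Lsd1Δ/+, without the transgene, also differed from WT, by 0.72 for Trem2 and 0.12 for Tyrobp, with overlapping groups. PS19 and WT did overlap for all 10 genes on this scale, with relative differences of 0.91 for Trem2, 0.97 for Tyrobp, -0.09 for Apoe and -0.05 for Plcg2. The groups lay apart for 3 of 10 genes in PS19;Lsd1Δ/+ against WT and for 2 of 10 in PS19_HA against WT_HA. They also did for 4 of 10 in PS19_rescue against WT_HA and, without the transgene, for 2 of 10 in Lsd1Δ/+ against WT. The share over all genes was not computed on this scale, so these counts have no background. Oligodendrocyte markers summed to 3970 to 4698 CPM in WT and 5131 to 7417 in PS19, and choroid plexus markers to 65.6 to 2129 and 259 to 2133. At 11 months the summed choroid plexus markers ranged over 36.1 to 875 CPM (WT_HA), 357 to 3298 (PS19_HA) and 87.4 to 1889 (PS19_rescue). Their median log2 difference was 2.48 for PS19_HA against WT_HA (4 of 4 higher), -1.29 for PS19_rescue against PS19_HA (4 of 4 lower) and 1.23 over carriers, none called by edgeR. Of the 6 markers of hippocampal neurons 0 read higher in carriers (median -0.31, none called). Monocyte and border macrophage markers summed to at most 25.0 CPM in any PS19 library and to 6.39 to 9.96 in WT, with Plac8 called higher in carriers. Of the 5 T cell markers tested, 4 read higher in carriers and 2, Cd3e and Cd3g, were called higher in carriers (log2 differences 1.78 and 1.87, edgeR adjusted p = 0.0248 and 0.0443). At 9 months summed T cell markers reached 10.2 CPM in WT and at most 2.13 in PS19, and the 2 tested there had a median of -1.26 for PS19 against WT. The part of these other cell types in the results was not tested.

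**Figure D4:**
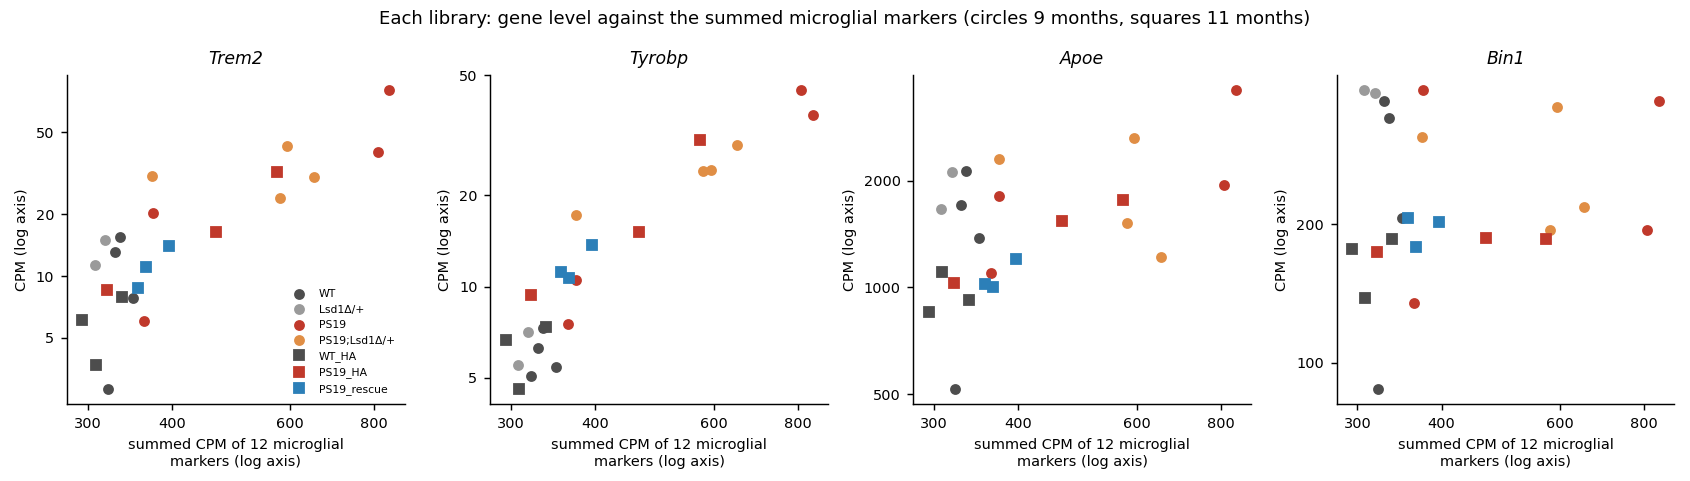
CPM of Trem2, Tyrobp, Apoe and Bin1 (vertical, log axis) against the summed CPM of 12 microglial markers (horizontal, log axis), 1 point per library (circles 9 months, squares 11 months). WT and Lsd1Δ/+ libraries lie at 307 to 350 CPM of markers, PS19 libraries at 364 to 842.

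Other genes of the same pathways were counted from lists fixed with the members. Of 22 tested genes of TREM2-TYROBP signalling, 8 rose in carriers and 0 fell (median log2 difference 0.51). The 4 with the lowest p were Ptpn6, the inhibitory phosphatase SHP-1 (1.23 ± 0.25, edgeR adjusted p = 0.00468), Treml2, a receptor of the TREM family (1.67 ± 0.34, 0.00575), Pik3ap1, an adaptor of phosphoinositide 3-kinase (1.24 ± 0.27, 0.00923), and Vav1, an exchange factor for small GTPases (0.98 ± 0.22, 0.0128). In apolipoprotein and lipid transport 4 of 17 rose and 0 fell (median 0.25): Abca1, the lipid exporter that loads apolipoprotein E (0.87 ± 0.19, edgeR adjusted p = 0.0120), Apod (1.00 ± 0.23, 0.0168), Npc2, a lysosomal cholesterol carrier (0.75 ± 0.19, 0.0284), and Clu, which encodes clusterin (0.49 ± 0.14, 0.0497). Abca1 read 54.2 to 62.9 CPM in WT, 92.7 to 107 in PS19;Lsd1Δ/+ and 50.0 to 188 in PS19, while Apoe itself passed only with the replicate block. Of 12 genes of progranulin biology and the lysosome 2 rose (median 0.35), Ctsd, the protease cathepsin D (1.14 ± 0.29, edgeR adjusted p = 0.0265), and Gusb (0.64 ± 0.17, 0.0375).

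The MS4A family gave 5 of 6 tested genes higher in carriers (median log2 difference 2.0): Ms4a6c (2.1 ± 0.42, edgeR adjusted p = 0.00436), Ms4a4c (2.04 ± 0.44, 0.00540), Ms4a4b (2.13 ± 0.55, 0.0230), Ms4a7 (1.95 ± 0.49, 0.0251) and Ms4a6b. Their levels were low, at most 3.67 CPM for Ms4a7, and 7 of the 13 listed genes had too few reads to be tested, so the count covers only those that passed the filter. The filter can admit a low gene on its reads in some groups only. The count and the median may thus depend on the filter, which was not tested for this list. Of 10 PU.1 partners and myeloid factors 5 rose (median 0.65), with the lowest p for Ikzf1 (0.96 ± 0.17, edgeR adjusted p = 0.00155), Irf8, a partner of PU.1 (1.29 ± 0.24, 0.00222), and Runx1 (1.53 ± 0.30, 0.00364). Of 28 further orthologues of Alzheimer risk genes only 2 rose, Ctsh, which encodes cathepsin H (1.26 ± 0.22, edgeR adjusted p = 0.00145), and Rhoh (1.25 ± 0.30, 0.0195), and their median was 0.04. None of 9 genes of the amphiphysin family and endocytosis was called by edgeR or DESeq2 (median -0.03). The 3 with the lowest p were Bin2 (0.53 ± 0.18, edgeR adjusted p = 0.124), Sh3gl2 (-0.42 ± 0.18, 0.327) and Clta (-0.14 ± 0.08, 0.535). Over all genes tested the median was -0.01 and 2.98% were called, and in no single comparison of 2 groups did edgeR call any gene of these 7 lists. DESeq2 called at most 2 genes of a list in a single comparison.

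**Figure D5:**
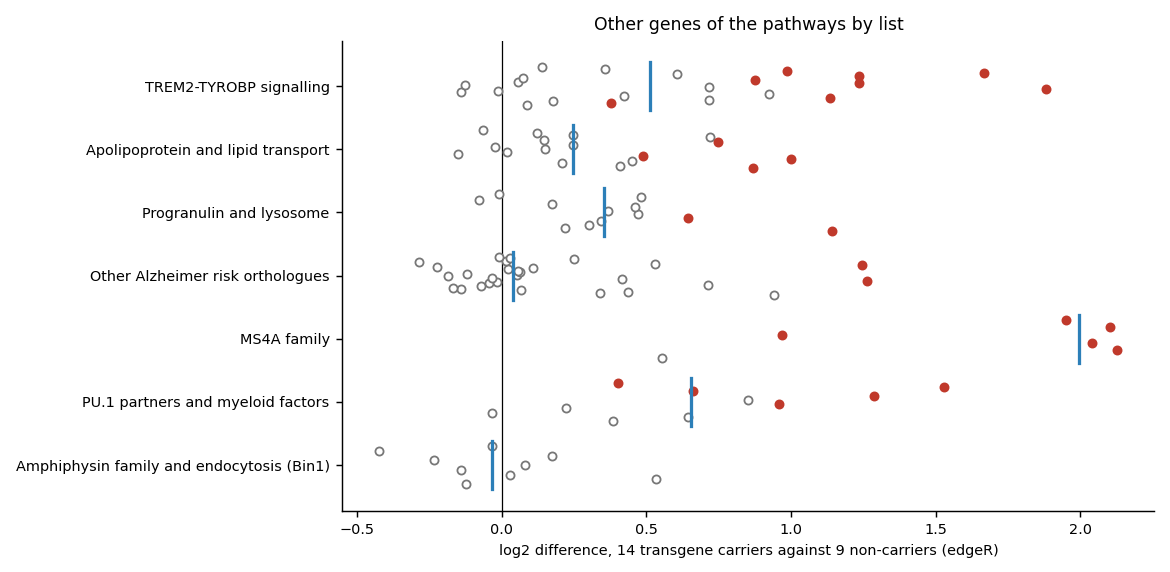
Log2 difference of 14 carriers against 9 non-carriers (horizontal) for every tested gene of the 7 lists (vertical), red where edgeR's adjusted p is under 0.05, with a bar at each list's median. The medians run from -0.03 for the list around Bin1 to 2.0 for the MS4A family, of which only 6 of 13 listed genes passed the filter.

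The genes whose profile was most like that of a member were named by the root mean square difference of log2 CPM over the 23 libraries, each profile centred on its mean, among 16157 other genes. For Trem2 they were C1qc (0.23), Ctsd (0.30), Cyba (0.33), C1qa (0.33) and Unc93b1 (0.36), where Trem2's own root mean square spread was 1.15. Among the members the nearest to Trem2 were Grn and Spi1, both at 0.44, and Tyrobp was at 0.57. For Apoe they were Ctsa (0.20), Frmpd1 (0.20), Man2b2 (0.21), Atf5 (0.21) and Acsf2 (0.21), against its own spread of 0.61. For Bin1 they were Ppp1r12c (0.09), Hid1 (0.09), Adrm1 (0.10), Akt1 (0.10) and Zdhhc7 (0.10), against 0.57. Libraries, depth and mitochondrial share are common to all of these profiles, and no test was made.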

How the data were processed

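Poly(A) RNA of mouse hippocampus was sequenced by the submitters in 23 libraries. Per the submitters' processing notes, FastQC 0.11.7, Trimmomatic 0.36.5, HISAT2 2.1.0, featureCounts 1.6.0.6 and DESeq2 2.11.40.2 were used on build GRCm38. No source used here gives the annotation release, the strand setting or the treatment of multiply aligned reads. Raw counts per gene, without normalization, are what the authors deposited, and groups and replicate numbers came from the sample titles. Gene symbols and positions were read from GENCODE's GRCm38 annotation. It matched 54165 of 54232 identifiers, and the unmatched ones held 0.0184% of the counts.

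Counts were tested with edgeR 4.0.16 in R 4.3.3 (quasi-likelihood F test, robust, TMM, filterByExpr by group with minimum count 10 and minimum total 15), with Benjamini-Hochberg adjustment over all genes tested and a threshold of 0.05. The 14 libraries at 9 months shared 1 fit, the 9 at 11 months another, and the contrasts over both ages used all 23. Intervals are 95% intervals from the fit, ± in a log2 difference is the standard error, and CPM means carry SDs. DESeq2 1.42.0 was the second tool; genes with an undefined adjusted p stayed out of its calls. Figures were drawn with matplotlib in Python 3.11.15. The scripts' tests were tested on simulated data.

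The 10 genes and the lists were chosen with earlier results of these data known. All 10 are named; of the other lists, up to 4 genes called in carriers against non-carriers, by lowest p, or the 3 with the lowest p where none was called, and further names were taken after their values were seen. Some genes the rule would name are not reported here. Lists were described by counts and medians, with no set test. No 2 libraries were near-identical (smallest chi-square per gene 11.6).

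Same-numbered libraries deviated together across genes, with r of 0.485 to 0.808 for PS19 and WT and 0.304 to 0.522 for PS19;Lsd1Δ/+ and WT. It was 0.288 to 0.467 for PS19;Lsd1Δ/+ and PS19, 0.101 to 0.273 for PS19_HA and WT_HA and 0.109 to 0.443 for PS19_rescue and WT_HA. The number was treated as a possible pairing there, from the data and not from the labels. For PS19_rescue and PS19_HA (0.063 to 0.229) and Lsd1Δ/+ and WT (2 pairs) it was not. No values for differently numbered libraries are given, so these values cannot show a pairing. Replicate 1 was of male type in PS19_rescue and of female type in WT_HA, and replicate 3 the reverse. The calls of Apoe and Plcg2 with the replicate block rest on this number. The main fits did not use the number. It entered only as the replicate block, an alternative setting, so the main estimates, intervals and p-values are unpaired. Alternatives were DESeq2, other size factors, no filter, the replicate block, an older fit, leaving out mitochondrial genes or libraries, smaller fits, covariates for sex and for replicates 1 and 2 against 3 and 4, and leaving out each library.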

Additional observations from a re-analysis of the deposited data

How the results depend on the processing

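Of 171 counts of called members under alternative settings, 144 were unchanged, 21 lower and 6 higher. All 21 lower ones were of the 6 members called over all carriers: 4 without the filter and 5 with the older fit and with a sex covariate. Leaving out single libraries gave 4 or 5 where it lowered the count, and 6 otherwise. For PS19 against WT, DESeq2 called 1 of the 10 and leaving out single libraries gave 0 to 2; for PS19;Lsd1Δ/+ against WT, DESeq2 and a fit of only those groups each called 1, Tyrobp (adjusted p = 0.0118 and 0.0168); for PS19_HA against WT_HA, DESeq2 called 2. With the replicate block 8 of the 10 were called over all carriers, Apoe and Plcg2 in addition, and 0 in each single comparison; it changed no other call. Bin1 changed sign: for PS19;Lsd1Δ/+ against WT it was -0.16 without libraries over 10% mitochondrial counts, -0.0765 in replicates 1 and 2 alone and -0.17 to 0.35 as single libraries were left out, for PS19 against WT -0.15 to 0.36, and over all carriers 0.15 with the block and -0.13 to 0.057. For PS19_rescue against PS19_HA, leaving out single libraries gave -0.21 to 0.0691 for Plcg2, -0.33 to 0.30 for Abi3 and -0.39 to 0.0564 for Grn. Trem2, Tyrobp, Inpp5d and Ms4a6d stayed called over all carriers in every setting run. The cause of each change was not tested. Calls over all genes moved more: PS19 against WT gave 15 by edgeR, 191 by DESeq2, 32 with the block, 23 without a filter, 1 with the older fit and 1 to 188 as single libraries were left out; PS19;Lsd1Δ/+ against WT gave 4, 110, 32, 8, 1 and 1 to 4, and 55 with only those groups; PS19_HA against WT_HA gave 2, 120, 8, 4, 3 and 0 to 8; all carriers gave 623, 841, 2097, 441, 533 and 424 to 770. At these depths Abi3 and Ms4a6d rest on as few as 1 and 2 reads in a library.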

Other observations

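Some values of the 10 genes belong in no comparison above. Libraries stood out across the genes as a whole: WT replicate 3 was the lowest WT library for 10 of 10 genes and PS19 replicate 3 the lowest of PS19 for 9 of 10, both with over 10% mitochondrial counts, while PS19 replicate 1 was the highest of its group for 7 of 10. The median CPM over the 10 genes was 41.5 in PS19 replicate 1 and 33.2 in replicate 4, against 13.4 and 7.42 in replicates 2 and 3. In PS19;Lsd1Δ/+ the 4 medians lay between 18.2 and 26.4.

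Restricted to replicates 1 and 2, PS19 against WT gave log2 differences of 1.84 for Trem2, 1.83 for Tyrobp and 1.07 for Grn, and restricted to replicates 3 and 4 they were 2.13, 2.32 and 1.53, with no member past the threshold in either subset (edgeR). Without the libraries over 10% mitochondrial counts, the log2 difference over all carriers was 1.45 for Trem2 and 1.75 for Tyrobp (edgeR adjusted p = 0.00589 and 0.00253).

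Per kilobase of exon, the level of Tyrobp over that of Trem2 spanned 3.51 to 13.4 in WT and 3.39 to 9.21 in PS19. At 11 months it spanned 6.87 to 9.18 in WT_HA and 6.87 to 8.16 in PS19_HA. The size of this ratio depends on the exon lengths used, 4946 bases for Trem2 and 667 for Tyrobp. Without that scaling, mean levels of Trem2 and Tyrobp were 9.81 and 6.01 CPM in WT, and 5.90 and 6.18 in WT_HA. Apoe over Trem2 was 301 to 425 in WT and 92.7 to 173 in PS19;Lsd1Δ/+, ranges that did not overlap, and 103 to 418 in PS19.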
